A study of Mus musculus with 15 samples.

Results

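The genes described here are 9 components and targets of Notch signalling in the mouse aortic valve: Hes1, Hey1, Hey2, Heyl, Nrarp, Lfng, Rbpj, Dtx1 and Efnb2. They were chosen by name as pathway members, with earlier results of these data known, and all 9 were found among the 18073 genes of the authors' deposited table. Leaflets of the aortic valve, 3 per mouse, were taken from 15 mice of strain C57BL/6 at an age of 2 months, and 1 RNA library was sequenced per mouse. The groups combine the Notch1 genotype, wild type or heterozygous, with the telomerase RNA gene Terc, wild type (long telomeres) or absent for 2 generations (short telomeres). The groups are called WT-long (Notch1 wild type, Terc wild type, 4 libraries), het-long (Notch1 heterozygous, Terc wild type, 4 libraries), WT-short (Notch1 wild type, Terc null, 3 libraries) and het-short (Notch1 heterozygous, Terc null, 4 libraries). All groups share the strain and the age. What the mutant Notch1 allele is missing is not stated in the labels, and its transcripts may or may not count towards the Notch1 level. Whole leaflets are a mixture of cells, and fewer cells of a type cannot be told apart from less RNA per cell.

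Notch receptors are bound by ligands on neighbouring cells and are then cut, and the freed intracellular part joins the DNA-binding protein Rbpj in the nucleus to switch on target genes. Among the targets are the Hes and Hey genes, which encode repressors of transcription, and Nrarp, whose product damps the signal. In the aortic valve the pathway acts in the endothelium and in the interstitial cells beneath it, and loss of a NOTCH1 copy in people is a known cause of valve malformation and calcification. By its title, the study asks how telomere length bears on the effects of Notch1 haploinsufficiency.

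Every expression level below is the authors' single pooled value per group in FPKM, which scales fragments to transcript length and to the fragment total of the library. Neither the spread between mice nor the read depth is known, so no value carries an error, no difference has a replicate check and no p-value is given. Differences between groups are log2(FPKM + 1) of the first-named group minus that of the second, and this scale understates changes of low genes. Past 2-fold means a difference of at least 1 on that scale. The amplification kit does not mark strand, so reads of overlapping antisense genes cannot be separated from those of a member.

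The 9 genes fell into different patterns over the 4 groups. Lfng, Hey2 and Nrarp were lowest in WT-short valves and several-fold higher in het-short valves. Heyl and Dtx1 were lower in heterozygous than in wild type valves at both telomere lengths, and lowest in het-short valves. Hes1 and Hey1 were lowest in het-long valves, Efnb2 was highest in het-short valves, and Rbpj varied least. The authors' deposited table called none of the 9 genes in any of its 5 comparisons, in which it called 0.415% (75), 0.476% (86), 0.686% (124), 0.432% (78) and 0.526% (95) of all genes. In that order these are het-long against WT-long, het-short against WT-short, WT-short against WT-long, het-short against het-long, and het-short against WT-long.

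**Figure D1:**
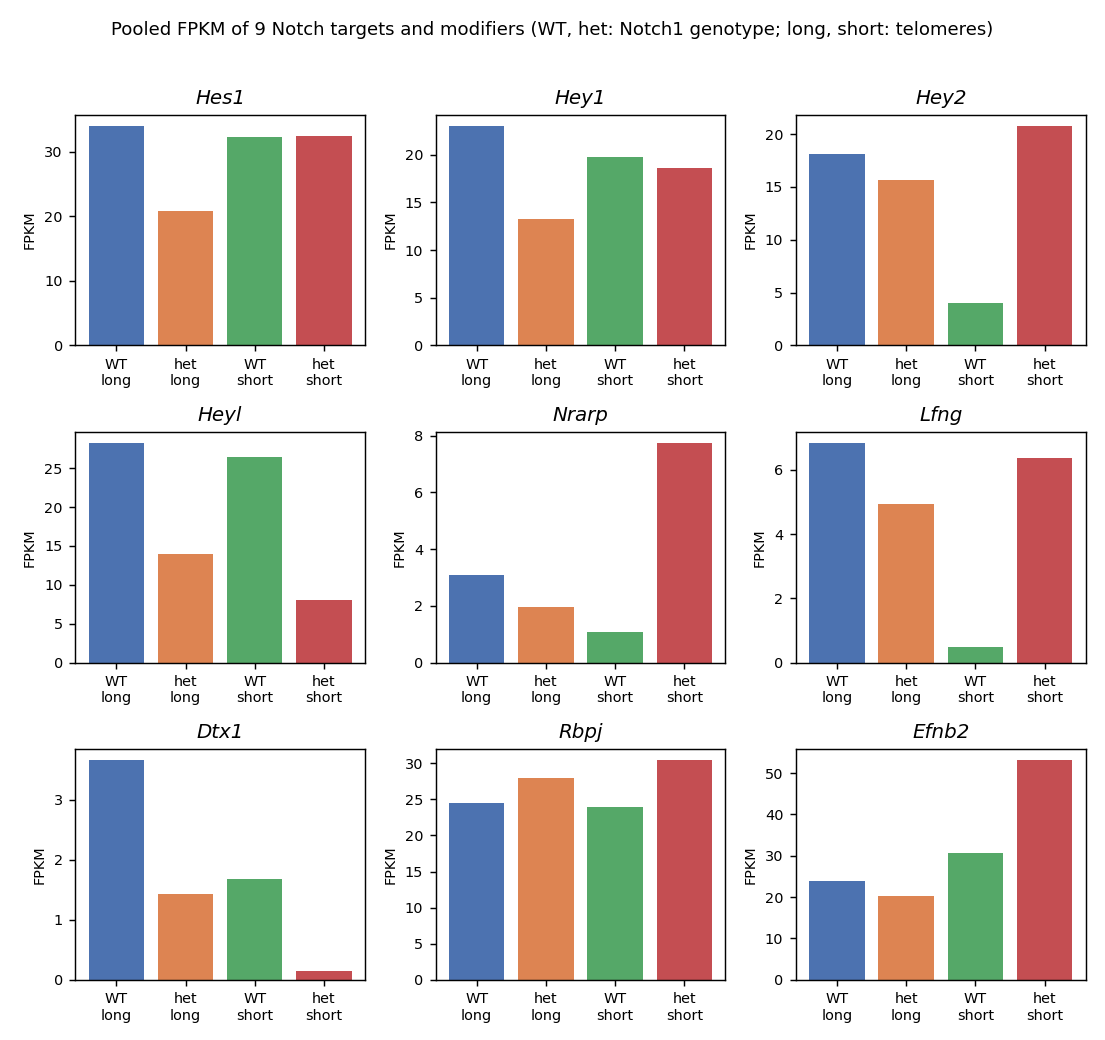
The authors' pooled FPKM of each of the 9 genes (y axis, separate linear scale per gene, from 0) in the 4 groups (x axis), 1 value per group and no error. Hey2 and Lfng stand lowest in WT-short valves, at 4.04 and 0.483 FPKM, and Dtx1 lowest in het-short valves, at 0.154 FPKM.

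Hes1 (ENSMUSG00000022528) encodes a basic helix-loop-helix repressor that Notch switches on in many tissues. It stood at 34.0 FPKM in WT-long and 20.8 FPKM in het-long valves, and at 32.3 and 32.5 FPKM in WT-short and het-short valves. The het-long group was the low one, and the other three lay within 1.06-fold of each other. Hey1 (ENSMUSG00000040289), a related repressor expressed in endocardium and endothelium, was lowest in the same group, with 23.0 and 13.3 FPKM in WT-long and het-long valves and 19.8 and 18.6 FPKM in WT-short and het-short valves. Over the 4 groups the centred log2 profiles of Hes1 and Hey1 were the closest of any pair of members, at a Euclidean distance of 0.17. The highest group exceeded the lowest 1.64-fold for Hes1 and 1.74-fold for Hey1. Among the 15044 genes with a mean of at least 1 FPKM, 19.9% had a smaller range over the groups than Hes1 and 24.5% a smaller range than Hey1, where the median range of those genes was 1.17 on the log2 scale.

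Hey2 (ENSMUSG00000019789) encodes the Hey repressor known from arterial endothelium and ventricular heart muscle. Its level was 18.1 FPKM in WT-long and 15.7 FPKM in het-long valves, 4.04 FPKM in WT-short and 20.8 FPKM in het-short valves. The WT-short group alone was low, 4.47-fold under its long-telomere counterpart and 5.14-fold under the het-short group, while the other three groups differed by at most 1.33-fold. In rank among all genes Hey2 stood above 46.4% of them in the low group. Markers of heart muscle, a tissue that neighbours the leaflets and expresses Hey2, had a mean log2 level over 14 genes of 7.23 and 7.09 in WT-long and het-long valves and 6.99 and 7.70 in WT-short and het-short valves. Of the 14, 11 were highest in het-short valves, where Hey2 was highest, and all 14 were higher there than in WT-short valves, with a median of 0.70. Their mean was lowest in WT-short valves, as Hey2 was. By single marker, 8 were lowest in WT-long, 4 in WT-short and 2 in het-long valves. The sums were 3871, 5201, 4433 and 6597 FPKM in WT-long, het-long, WT-short and het-short valves. The part of heart muscle in the Hey2 values was not tested.

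Heyl (ENSMUSG00000032744) encodes the Hey repressor best known from smooth muscle of vessels, where Notch3 signals. It was measured at 28.2 FPKM in WT-long and 13.9 FPKM in het-long valves, and at 26.5 FPKM in WT-short and 8.06 FPKM in het-short valves. Both wild type groups were higher than both heterozygous groups, 2.03-fold with long and 3.29-fold with short telomeres. The smooth muscle and pericyte list of 14 genes had mean log2 levels of 6.09 and 4.40 in WT-long and het-long valves and 5.22 and 4.95 in WT-short and het-short valves. Its summed level was 1541, 546, 1021 and 875 FPKM in the same order, and no marker of it was listed at 0. Platelet markers, 10 of 10 measured, also had both wild type groups above both heterozygous groups, with mean log2 levels of 6.59 and 1.67 with long telomeres and 6.31 and 2.87 with short. The part of either list in the Heyl values was not tested.

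The levels of the 3 Hey genes were summed, as FPKM is scaled to length. How far such levels compare between genes was not tested. The sum was 69.4 and 42.8 FPKM in WT-long and het-long valves and 50.3 and 47.5 FPKM in WT-short and het-short valves. Its makeup differed more than its total. Hey2 held 26.1% and 36.5% of the sum in WT-long and het-long valves, 8.04% in WT-short valves and 43.8% in het-short valves. Heyl held 40.7% and 32.5% in the long-telomere groups, and then 52.7% in WT-short and 17.0% in het-short valves. Hey1 held between 31.0% and 39.3% in every group. In these pooled values the largest share in WT-short valves was thus that of Heyl, also without an error. In het-short valves Hey2 and Hey1 lay close together, at 43.8% and 39.3%, and single pooled values without an error cannot rank them.

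Nrarp (ENSMUSG00000078202) encodes a small ankyrin repeat protein that binds the complex of Rbpj and the Notch intracellular domain and limits its output. Its level was low throughout, at 3.09 FPKM in WT-long and 1.95 FPKM in het-long valves, 1.06 FPKM in WT-short and 7.74 FPKM in het-short valves. The het-short group was the highest, 7.30-fold above the WT-short group, 3.97-fold above the het-long group and 2.51-fold above the WT-long group. Macrophage markers, 9 of 10 measured, were likewise lowest in WT-short valves in 7 cases and highest in het-short valves in 7, with mean log2 levels of 5.77 and 6.13 in the long-telomere groups and 5.46 and 6.70 in the short-telomere groups, wild type first. Their part in the Nrarp, Hey2 and Lfng values was not tested.

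Lfng (ENSMUSG00000029570) encodes Lunatic fringe, a glycosyltransferase of the Golgi that adds sugars to the Notch extracellular domain and so alters which ligands activate it. It stood at 6.84 FPKM in WT-long and 4.94 FPKM in het-long valves, 0.483 FPKM in WT-short and 6.39 FPKM in het-short valves. As for Hey2, the WT-short group alone was low, here 14.2-fold under WT-long valves and 13.2-fold under het-short valves, and the other three groups differed by at most 1.38-fold. Hey2 and Lfng had centred profiles at a distance of 0.35, the second closest pair of members. At a pooled level under 1 FPKM in that group the size of the fold is uncertain.

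WT-short, the group in which Hey2, Lfng and Nrarp were lowest, is the one with 3 libraries, and it also had the most genes listed at 0. They numbered 705 and 250 in WT-long and het-long valves and 2010 and 1181 in WT-short and het-short valves. Neutrophil markers, 10 of 10 measured, had mean log2 levels of 0.87 and 1.70 in the long-telomere groups, 5.11 in WT-short and 2.74 in het-short valves. Endothelial markers were higher in WT-short than in WT-long valves in 12 of 16 cases, beside 36.6% of all genes. Of the fibroblast and valve interstitial cell markers, 14 of 14 measured with none at 0, 9 were lower in WT-short than in WT-long valves, with a median of -0.18. This was near the background, as 61.1% of all genes were lower there, with a median of -0.23. The mean log2 levels of these markers were 7.36 and 6.79 in WT-long and het-long valves and 7.0 and 6.97 in WT-short and het-short valves. Tcf21, a transcription factor of cardiac fibroblasts singled out after its values were seen, stood at 26.2, 12.3, 1.01 and 20.1 FPKM in that order, lowest in the same group as Hey2, Lfng and Nrarp. The authors' deposited table called it lower in WT-short than in WT-long valves, and higher in het-short than in WT-short valves. The part of the genes at 0 and of these cell types in the values of the 3 genes was not tested.

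Because Hey2, Lfng and Nrarp shared their lowest group, their promoters are shown, as the 250 bases before the RefSeq transcription start in build GRCm38.p6. Capitals mark matches, on either strand, of the Rbpj motif GTGGGAA or its core TGGGAA and of the E box CACGTG, a site of helix-loop-helix proteins. The regions are chr10:30842784-30843033 on the minus strand for Hey2, chr5:140607091-140607340 on the plus strand for Lfng and chr2:25180508-25180757 on the plus strand for Nrarp, each written 5′ to 3′ in the direction of its gene.
Hey2: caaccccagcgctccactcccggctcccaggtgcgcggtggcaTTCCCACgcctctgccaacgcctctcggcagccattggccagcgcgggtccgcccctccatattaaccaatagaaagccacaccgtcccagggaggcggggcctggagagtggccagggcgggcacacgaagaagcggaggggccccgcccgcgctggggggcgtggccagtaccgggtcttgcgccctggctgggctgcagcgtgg
Lfng: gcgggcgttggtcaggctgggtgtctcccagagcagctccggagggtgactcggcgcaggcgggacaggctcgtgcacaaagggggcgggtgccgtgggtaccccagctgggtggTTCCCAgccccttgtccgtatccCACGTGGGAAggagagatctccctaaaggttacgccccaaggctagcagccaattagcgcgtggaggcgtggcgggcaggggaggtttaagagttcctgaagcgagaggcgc
Nrarp: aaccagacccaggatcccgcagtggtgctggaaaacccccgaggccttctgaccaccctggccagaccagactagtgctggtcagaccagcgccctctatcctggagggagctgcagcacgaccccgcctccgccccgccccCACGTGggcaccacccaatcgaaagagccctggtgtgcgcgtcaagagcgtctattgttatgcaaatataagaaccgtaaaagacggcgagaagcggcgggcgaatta
These matches are letters in a window and not measured binding sites.

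In the Hey2 promoter GTGGGAA lay on the reverse strand, 207 to 201 bases before the start. The Lfng promoter held GTGGGAA on the forward strand at 109 to 103 bases before the start, overlapping an E box at 112 to 107 bases, and a further core on the reverse strand at 135 to 130 bases, and an N box (CACNAG, a site of Hes repressors, not capitalised here) on the reverse strand at 181 to 176 bases. For Nrarp the match was an E box at 108 to 103 bases, beside N boxes at 179 to 174 and at 79 to 74 bases, both on the reverse strand. Of the 32851 promoter windows of this length, 5.42% held GTGGGAA, 21.6% the core, 6.02% the E box and 36.7% the N box. The table held 6 of the 9 members, with 7 promoters in all, and had no match for Hes1, Hey1 and Heyl. The 2 windows of Rbpj overlap, and both held the core. It lay at 149 and 65 bases before 1 start and at 205 bases before the other. The match at 205 bases is the same site as that at 65 bases, seen from the other start. Dtx1 and Efnb2 held an N box, at 107 and 239 bases before the start, and neither GTGGGAA, the core nor the E box was present in these 2 windows.

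**Figure D2:**
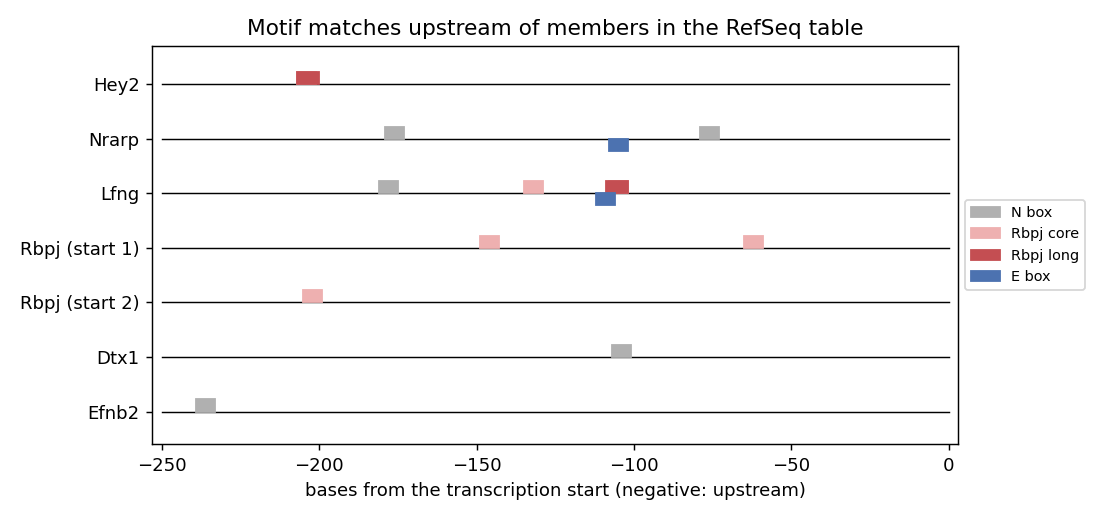
Positions of the Rbpj, E box and N box letter matches (blocks, the long Rbpj motif being GTGGGAA) in the 7 promoter windows of the 6 matched members, as bases before the transcription start (x axis). Hey2 and Lfng each hold 1 long Rbpj match, at 207 and 109 bases before the start.

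Dtx1 (ENSMUSG00000029603) encodes Deltex, a ubiquitin ligase that binds the intracellular domain of Notch and is itself a Notch target in lymphocytes. It was measured at 3.65 FPKM in WT-long and 1.42 FPKM in het-long valves, 1.68 FPKM in WT-short and 0.154 FPKM in het-short valves. The order of its levels was thus wild type above heterozygous at each telomere length, and long above short for each genotype. The extremes were 23.8-fold apart, and in het-short valves only 11.5% of all genes stood below Dtx1, so the size of the fold is uncertain. Immature T cell markers, 14 of 14 measured, had mean log2 levels of 3.39 and 6.48 in WT-long and het-long valves and 3.58 and 1.27 in WT-short and het-short valves. They had their lowest level in the same group as Dtx1, where 1 of the 14 was listed at 0, and their highest in a group where Dtx1 was low. B cell markers, 8 of 8 measured, had mean levels of 2.02 and 1.72 with long telomeres and 1.28 and 1.63 with short in the same order. The part of lymphocytes in the Dtx1 values was not tested.

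Rbpj (ENSMUSG00000039191), the DNA-binding partner of all Notch receptors, was the steadiest member. Its level was 24.5 and 28.0 FPKM in WT-long and het-long valves and 23.9 and 30.4 FPKM in WT-short and het-short valves, a span of 1.27-fold. The range was smaller for only 3.03% of the 15044 genes, and heterozygous valves were 1.14-fold and 1.27-fold above wild type at long and short telomeres.

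Efnb2 (ENSMUSG00000001300) encodes ephrin-B2, a membrane ligand of Eph receptors that marks arterial endothelium and is a target of Notch there. It stood at 23.8 and 20.3 FPKM in WT-long and het-long valves and at 30.6 and 53.1 FPKM in WT-short and het-short valves. The het-short group was the highest, 2.61-fold above het-long valves and 1.74-fold above WT-short valves, and Efnb2 exceeded 93.1% of all genes there. The 16 general endothelial markers had mean log2 levels of 4.82 and 4.44 in WT-long and het-long valves and 5.20 and 5.46 in WT-short and het-short valves, and sums of 632, 520, 706 and 903 FPKM. Their groups came in the same order as those of Efnb2, with 12 of the 16 highest in het-short valves and 10 of the 16 lowest in het-long valves. The 8 arterial markers had means of 4.38, 4.16, 4.45 and 4.64 in the same order of groups, but 5 of the 8 were lower in WT-short than in WT-long valves, and their sums were 244.9, 220.2, 230.6 and 287.3 FPKM. No marker of the endothelial list was at 0 in any group, and the part of endothelial content in the Efnb2 values was not tested. Of the remaining marker lists, mean log2 levels in the same order of groups were 7.72, 6.66, 9.46 and 8.01 for red cells (7 of 9 measured), 2.68, 1.87, 2.24 and 1.09 for mesothelium (8 of 8), 2.78, 3.05, 3.98 and 3.22 for adipocytes (7 of 8) and 3.82, 4.22, 3.30 and 2.62 for melanocytes (6 of 7). The order of groups for mesothelium was the same as that for Heyl and Dtx1, and its part in their values was not tested.

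**Figure D3:**
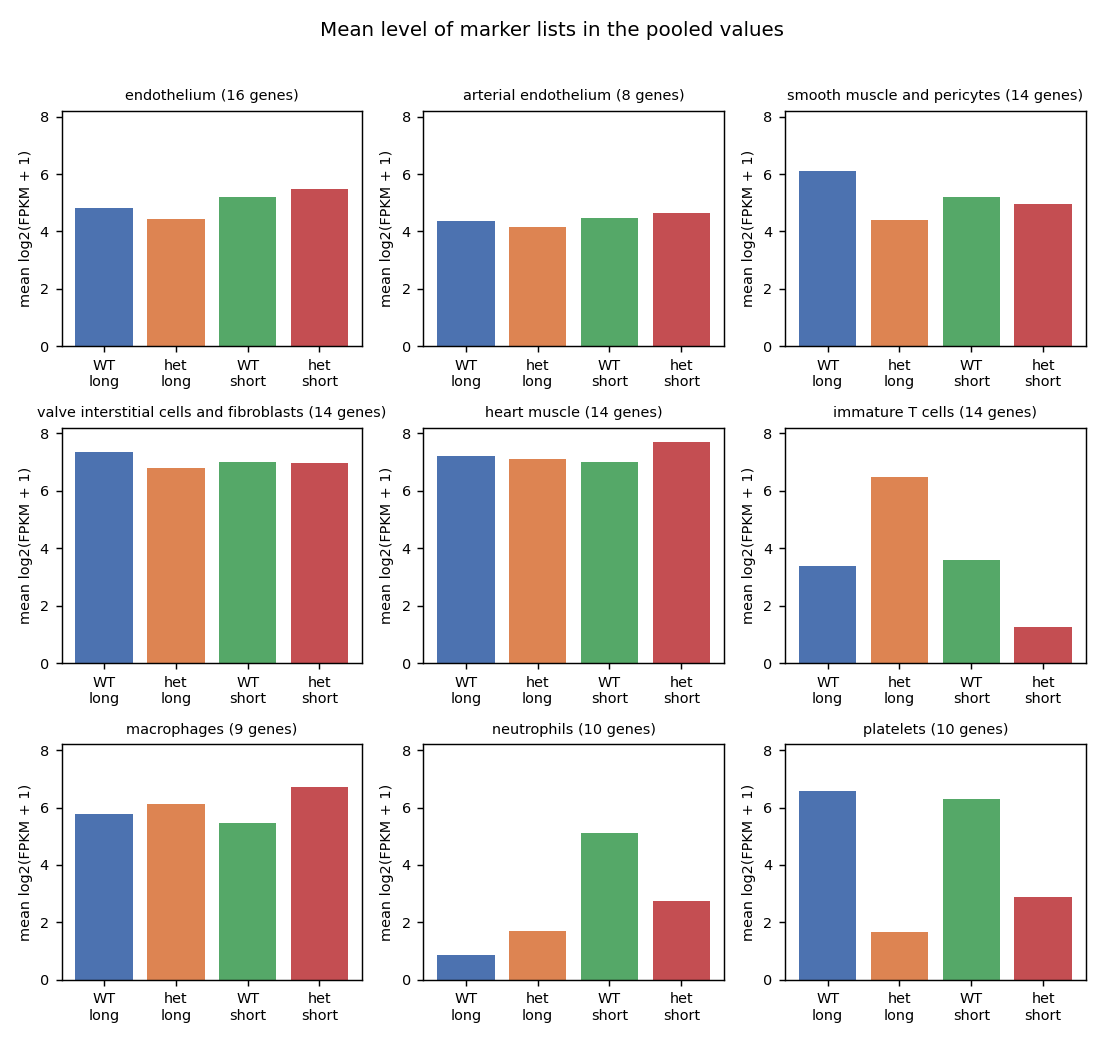
Mean log2(FPKM + 1) over the markers of each cell type (y axis, from 0) in the 4 groups, 1 pooled value per gene and group and no error. Platelet markers stand at 6.59 and 6.31 in the Notch1 wild type groups and 1.67 and 2.87 in the heterozygous groups, and endothelial markers range from 4.44 to 5.46.

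With long telomeres, 8 of the 9 members were lower in Notch1 heterozygous than in wild type valves. The median difference was -0.47 on the log2 scale, where the median of all 18073 genes was 0.09 and 43.6% of genes were lower. The largest differences were those of Heyl (-0.97), Dtx1 (-0.94), Hey1 (-0.75) and Hes1 (-0.68), and 7.92%, 8.43%, 12.2% and 13.8% of genes had a lower value. Nrarp (-0.47), Lfng (-0.40), Efnb2 (-0.22) and Hey2 (-0.20) differed less, and Rbpj was higher by 0.18. None of the 9 passed 2-fold, which 10.9% of all genes did upwards and 7.53% downwards. Endothelial markers were also lower, 13 of 16 with a median of -0.31. Relative to the mean of that list the differences of Hey2 and Efnb2 turned to 0.18 and 0.16. Those of Hes1 and Hey1 came to -0.31 and -0.38, and those of Heyl and Dtx1 to -0.59 and -0.56. Other cell types were lower too. Fibroblast and valve interstitial markers were lower in 13 of 14 cases with a median of -0.57. Smooth muscle and pericyte markers were lower in 13 of 14 with a median of -1.39, 4 of them called by the authors. Further cell types were higher, beside 55.9% of all genes. Immature T cell markers were higher in 14 of 14 cases with a median of 3.07, 8 of them called. Neutrophil markers were higher in 10 of 10 cases, with a median of 0.68. Heart muscle markers were higher in 11 of 14 and macrophage markers in 7 of 9, with medians of 0.32 and 0.27. The part of these cell types in the members' differences was not tested. Notch1 itself had a level of 39.1 FPKM in WT-long and 25.1 FPKM in het-long valves.

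With short telomeres the same genotype contrast split the members. Lfng (2.32), Hey2 (2.11) and Nrarp (2.08) were past 2-fold higher in heterozygous valves, and 98.4%, 97.9% and 97.8% of all genes had a lower difference. Heyl (-1.60) and Dtx1 (-1.22) were past 2-fold lower, with 4.94% and 8.09% of genes below them. Efnb2 (0.78) and Rbpj (0.33) were higher by less, and Hey1 (-0.08) and Hes1 (0.01) were near 0. The count was 6 higher and 3 lower with a median of 0.33, against 53.5% of all genes higher and an all-gene median of 0.06, and 3 members were past 2-fold upwards and 2 downwards beside 12.5% and 10.8% of all genes. Relative to the endothelial list the same 5 genes kept their direction, at 2.06 for Lfng, 1.85 for Hey2, 1.82 for Nrarp, -1.86 for Heyl and -1.48 for Dtx1. Notch1 was at 16.6 FPKM in the valves labelled WT-short and 23.3 FPKM in those labelled het-short, so its level went against the genotype labels there, and the directions given for this contrast rest on the labels.

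**Figure D4:**
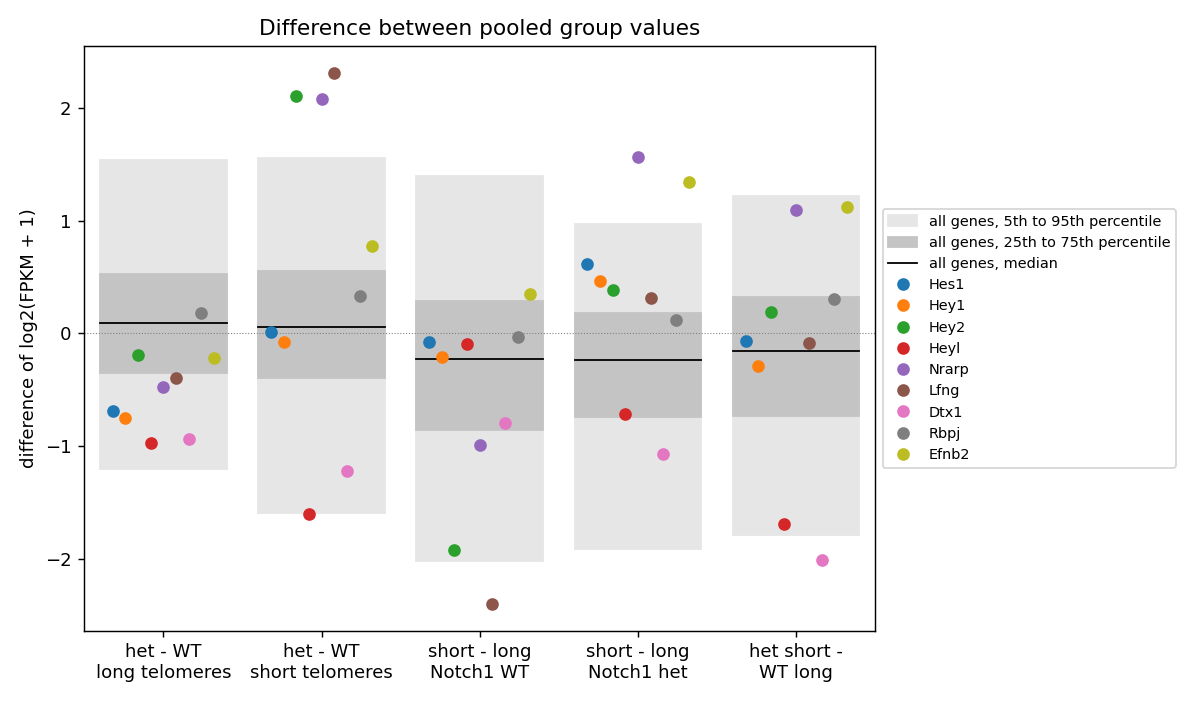
Difference in log2(FPKM + 1) of each member (y axis, points) in the 5 comparisons (x axis), with the median of all 18073 genes as a line and their 5th to 95th and 25th to 75th percentiles as grey boxes, and no error, since each group has 1 pooled value. Lfng, Hey2 and Nrarp lie at 2.32, 2.11 and 2.08 for heterozygous against wild type with short telomeres, and at -0.40, -0.20 and -0.47 with long telomeres.

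Both genotype contrasts can be set side by side, as they share no group. The difference with short telomeres minus that with long was 2.72 for Lfng, 2.56 for Nrarp and 2.31 for Hey2, and 98.4%, 98.0% and 97.3% of all genes had a lower value. For Efnb2 it was 0.99, for Hes1 0.70 and for Hey1 0.67, above 83.3%, 75.7% and 75.1% of genes, and for Rbpj it was 0.15. Dtx1 (-0.28) and Heyl (-0.63) were the members with a negative value, that is, with the heterozygous group further below wild type when telomeres were short. The median over all genes was 0.0042. Relative to the endothelial list the values were 2.08, 1.92 and 1.67 for Lfng, Nrarp and Hey2, 0.35 for Efnb2, 0.056 and 0.033 for Hes1 and Hey1, and -0.49 for Rbpj, which turned. Those of Heyl and Dtx1 came to -1.27 and -0.92, and that of Dtx1 was -1.51 with a pseudocount of 0.1. Without values per mouse this difference of differences could not be tested.

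Between short and long telomeres in Notch1 wild type valves, Lfng (-2.40) and Hey2 (-1.92) were past 2-fold lower, with 2.79% and 5.75% of genes below them. Nrarp (-0.99) and Dtx1 (-0.79) were lower by less. The differences of Lfng, Hey2 and Nrarp here and between the genotypes with short telomeres use the same WT-short values and are not independent of each other. Levels of all genes were shifted downwards in this comparison, by a median of -0.23, with 61.1% of genes lower, 20.9% past 2-fold lower and 8.9% past 2-fold higher. Of the members 8 were lower and 1 higher, with a median of -0.21, close to that shift. The small differences of Hes1 (-0.08), Hey1 (-0.21), Heyl (-0.09) and Rbpj (-0.03) became 0.16, 0.019, 0.14 and 0.20 relative to it, and Efnb2, higher by 0.35, came to -0.04 relative to the endothelial list and to -0.01 when scaled without the genes named mt-. The mitochondrial chromosome held 13.9% and 9.52% of summed FPKM in WT-long and het-long valves, and 30.5% and 33.0% with short telomeres, which touches every comparison between telomere lengths, and its part in these differences was not tested.

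In heterozygous valves the members went largely the other way. Nrarp (1.57) and Efnb2 (1.34) were past 2-fold higher with short than with long telomeres, above 98.2% and 97.4% of all genes, and Dtx1 (-1.07) was past 2-fold lower. Beside these 2 and 1 members, 4.71% of all genes were past 2-fold higher and 16.8% lower. Heyl was lower by 0.72, and Hes1 (0.62), Hey1 (0.46), Hey2 (0.39), Lfng (0.31) and Rbpj (0.12) were higher on the deposited scale. Hey2, Lfng and Rbpj turned when the groups were scaled to an equal sum of FPKM without the 4 genes named mt-. They did not turn, at 0.32, 0.25 and 0.051, with such scaling without all 23 genes of the mitochondrial chromosome. In all 7 members were higher, with a median of 0.39, where 34.3% of all genes were higher and their median was -0.24. All 16 endothelial markers were higher in this comparison, with a median of 1.01. Relative to the mean of that list Nrarp and Efnb2 were higher by 0.54 and 0.32, no longer past 2-fold, whereas Hes1 (-0.41), Hey1 (-0.57), Hey2 (-0.64), Lfng (-0.71) and Rbpj (-0.91) turned.

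Heterozygous valves with short telomeres were also compared by the authors with WT-long valves. Nrarp (1.1) and Efnb2 (1.13) were past 2-fold higher and Dtx1 (-2.01) and Heyl (-1.69) past 2-fold lower. All genes gave 7.48% and 17.2% in these directions. Nrarp and Efnb2 were no longer past 2-fold when scaled without the genes named mt-, at 0.79 and 0.76, or relative to the endothelial list, at 0.45 and 0.48, and Dtx1 was at -3.89 with a pseudocount of 0.1. Of all genes, 3.70% were below Dtx1 and 5.91% below Heyl. Hey1 was lower by 0.29, Hey2 and Rbpj were higher by 0.19 and 0.30 but turned to -0.46 and -0.35 relative to the endothelial list, and Hes1 (-0.06) and Lfng (-0.09) were near 0 and turned to 0.09 and 0.07 relative to the median of all genes. The count was 4 higher and 5 lower with a median of -0.06, beside an all-gene median of -0.16. This comparison shares a group with each of the other four, so its values are not independent of theirs.

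Set against the other groups together, 2 members, Hey2 and Lfng, were at least 2-fold lower in WT-short valves than in each other group, as were 5.31% of all genes. Dtx1 was at least 2-fold below each other group in het-short valves, shared by 2.17% of genes, and Nrarp at least 2-fold above, shared by 1.93%. Which members stood apart depended on the setting: with groups scaled to the median gene Dtx1 no longer stood apart, and scaled without the genes named as mitochondrial, or relative to the endothelial list, Nrarp no longer did. In these last 2 settings Heyl joined Dtx1 below every other group in het-short valves, and relative to the endothelial list Nrarp joined Hey2 and Lfng in WT-short valves. With a pseudocount of 0.1 Dtx1 also stood above every other group in WT-long valves.

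Size alone did not set the authors' calls. With short telomeres the smallest ratio among called genes was 4.30-fold between the genotypes, and Hey2, Nrarp, Lfng and Dtx1 exceeded it without a call, as did most of the 4003 genes past it, of which 2.15% were called. In wild type valves Lfng exceeded the smallest called ratio of 4.54-fold between telomere lengths, where 2.85% of 4354 such genes were called. Dtx1 exceeded those of 4.79-fold and 4.25-fold in the 2 remaining comparisons with the het-short group, where 2.58% of 3026 and 2.66% of 3570 genes were called. With long telomeres no member reached the smallest called ratio between the genotypes of 4.67-fold.

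The genes around the members in the pathway were taken as lists, whose counts are read beside all genes. Of all genes 43.6% were lower in het-long than in WT-long valves, 42.6% in het-short than in WT-short valves, 61.1% in WT-short than in WT-long valves and 64.9% in het-short than in het-long valves. Of the 4 receptors, 3 were lower in het-long than in WT-long valves, 2 were lower in het-short than in WT-short valves, and all 4 were lower in WT-short than in WT-long valves, with a median of -0.64. Notch2, a receptor broadly expressed in connective tissue, stood at 43.0 and 21.6 FPKM in WT-long and het-long valves and 34.6 and 14.5 FPKM in WT-short and het-short valves, so that its groups followed the order of Heyl. Those of Notch3, the receptor mentioned above with Heyl, did not, at 6.03, 6.20, 3.56 and 2.76 FPKM in the same order of groups. Notch4, the endothelial receptor, stood at 4.75, 2.16, 2.64 and 9.19 FPKM in the same order, highest where Efnb2 and Nrarp were highest.

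Among the ligands, 4 of 6 were measured. All 4 were higher in heterozygous valves with short than with long telomeres, with a median of 1.02, where 34.3% of all genes were higher. All 16 endothelial markers were higher there as well, with a median of 1.01. The part of endothelial content in the ligand values was not tested. Dll1, a Delta-type ligand, stood at 7.97 and 2.85 FPKM in WT-long and het-long valves and at 2.12 and 8.12 FPKM in WT-short and het-short valves. Jag1, the ligand whose loss causes Alagille syndrome, stood at 12.4, 8.81, 5.41 and 16.1 FPKM in that order. Both were lowest in WT-short valves, as Hey2, Lfng and Nrarp were, and both were highest in het-short valves. The other ligands measured did not share the low WT-short level. Of the 4, 2 were higher and 2 lower in WT-short than in WT-long valves, and 1 was highest in WT-short valves.

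Lfng has relatives that also modify the Notch extracellular domain. Rfng, Radical fringe, had 12.2 and 9.0 FPKM in WT-long and het-long valves and 1.13 and 7.13 FPKM in WT-short and het-short valves, low in the same group as Lfng. Mfng, Manic fringe, had 3.99, 8.14, 15.2 and 7.34 FPKM and was highest in that group. Over the 3 measured of 6 genes of this kind the list median lay between -0.13 and 0.11 in the 5 comparisons.

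Nuclear cofactors of Rbpj, 22 of 22 measured, were lower in 16 cases in wild type valves with short against long telomeres, 8 of them past 2-fold, with a median of -0.80, where 20.9% of all genes were past 2-fold lower. In heterozygous valves 20 of 22 were lower, with a median of -0.63, and 4 were past 2-fold lower beside 16.8% of all genes, a share near the background. Tle2, a Groucho-type corepressor of Hes proteins, stood at 9.37 and 4.03 FPKM in WT-long and het-long valves and 0.53 and 1.34 FPKM in WT-short and het-short valves. Enzymes of receptor cleavage, 10 of 10 measured, had medians no further from 0 than 0.07 in any comparison. Aph1c, a gamma-secretase subunit, stood at 4.27 and 3.16 FPKM in WT-long and het-long valves and 2.50 and 1.48 FPKM in WT-short and het-short valves.

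Of the other Hes and Notch target genes 13 of 15 were measured, and 11 were lower in WT-short than in WT-long valves, with a median of -0.79. Il2ra, a cytokine receptor subunit of lymphocytes, was the single gene of the pathway lists called in the authors' deposited table, lower in that comparison at 11.7 and 0.59 FPKM with long and short telomeres. Ptcra, a Notch target of immature T cells, was at 0.29 and 8.18 FPKM in WT-long and het-long valves, at 8.73 FPKM in WT-short valves and listed at 0 in het-short valves, an order that none of the 9 members shared. Genes of endocytosis and turnover, 16 of 18 measured, were lower in 12 cases in het-long than in WT-long valves, and among them Numbl, a relative of the Notch inhibitor Numb, stood at 12.7, 3.80, 3.40 and 2.40 FPKM and Cbl, a ubiquitin ligase, at 18.8, 69.8, 26.4 and 22.9 FPKM.

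Eph receptors and other ephrins, the partners and relatives of Efnb2, were all measured, 8 of 8. Between the genotypes with short telomeres 7 of the 8 were higher in heterozygous valves, with a median of 0.11, and between telomere lengths in wild type valves 6 of 8 were lower, with a median of -0.52, beside 61.1% of all genes lower. Ephb1 stood at 2.68 and 0.72 FPKM with long telomeres and 0.14 and 1.55 FPKM with short, and Ephb3 at 3.78, 2.31, 0.76 and 1.84 FPKM. Both were lowest in WT-short valves, where Efnb2 was the second highest. In all, 5 of the 8 were lowest in WT-short valves and 2 in het-long valves, where Efnb2 was lowest. These 2 were Ephb4, at 37.8, 15.7, 26.0 and 33.8 FPKM, and Epha4, at 5.84, 5.69, 12.1 and 12.5 FPKM, in the same order of groups.

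**Figure D5:**
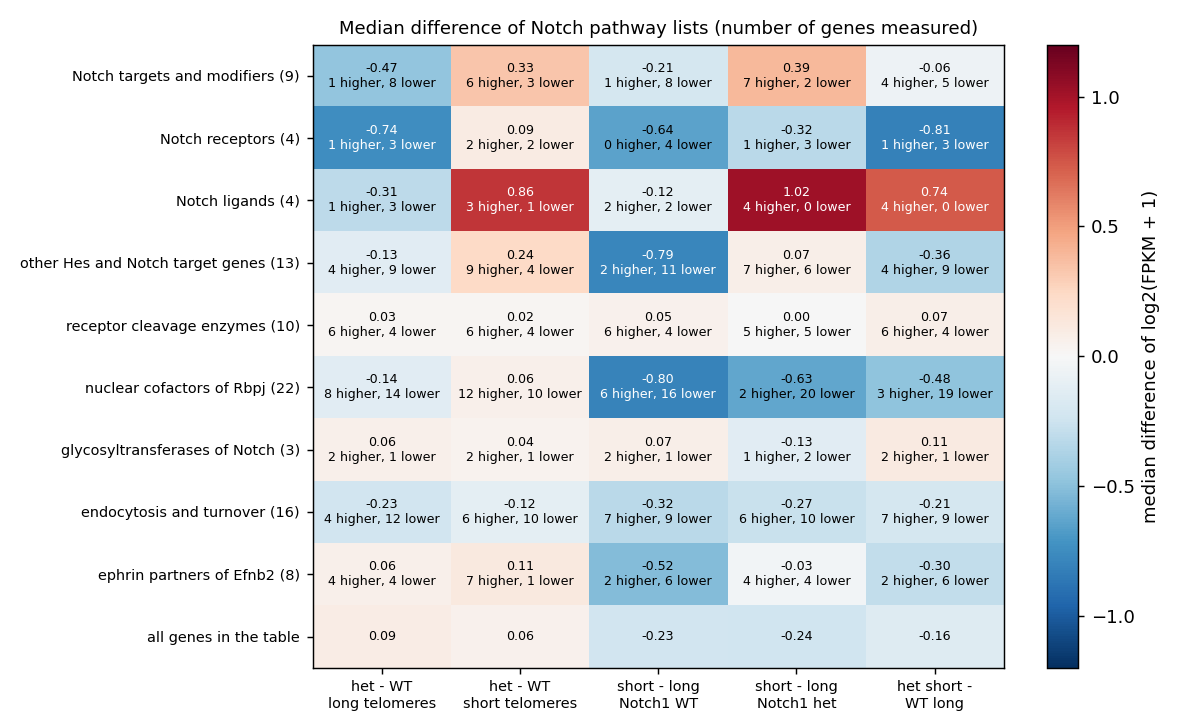
Median difference in log2(FPKM + 1) of each pathway list (rows) in the 5 comparisons (columns), as colour, with the number of measured genes higher and lower in each cell. The ligands reach 1.02 for short against long telomeres in heterozygous valves, and the cofactors of Rbpj -0.80 in wild type valves.

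Genes with profiles most like each member were sought among 12393 genes with a mean of at least 1 FPKM, by the Euclidean distance between centred log2(FPKM + 1) values over the 4 groups. Each profile has only 4 points, which share their pooled libraries. Nearest to Efnb2 were Itgbl1 (0.018), Scara5 (0.075) and Siglec1 (0.075), and nearest to Heyl were Igfbp6 (0.11), Lgals4 (0.14) and Igf2 (0.14). For Nrarp they were Ccl11 (0.20), Wisp2 (0.25) and Emilin2 (0.29). Hey2 was followed by Ccdc137 (0.13), Macrod1 (0.16) and Aimp2 (0.17), Lfng by Scand3 (0.098), Nudt2 (0.17) and Sh3bgr (0.19), and Dtx1 by Iqsec1 (0.085), Abcg4 (0.11) and Slc26a1 (0.15). Hes1, Hey1 and Rbpj ranged over less than 2-fold and no genes are named for them.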

How the data were processed

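Values came from 1 table: per the file headers, the authors deposited a single FPKM for each gene in each group, pooled over its libraries. The submitters' processing notes list FastQC, TopHat, SAMtools, Picard and build mm9, with no roles. What computed the FPKM and what test made the calls is not given in the sources used here. Besides FPKM, the authors deposited 5 columns of calls, each 0 or 1. A header is shared by 2 of them, which were assigned by their values: the pair assigned was the only one in which all called genes of the column differed at least 4-fold.

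RNA came from collagenase-treated leaflets and was amplified with NuGen Ovation V2, per the labels' protocols, which adds noise to low genes. Members were matched by symbol. Differences are log2(FPKM + 1), and the tests planned on values per library were replaced by description. The members and 22 lists were chosen with earlier results of these data known. Pathway genes are named if called, or as the 2 of a list with the largest absolute difference, and Notch1 as the targeted gene. A few genes that this rule names are not reported here. Likeness took the 3 nearest genes without clone or predicted names. Promoters are from RefSeq, GRCm38.p6, not the files' build. Alternatives were a pseudocount of 0.1, median scaling, scaling without mitochondrial genes, levels relative to the endothelial list, and a background of genes with a mean of at least 1 FPKM. Scaling without mitochondrial genes set the groups to an equal sum of the remaining FPKM. As deposited, all genes summed to 427784 FPKM in WT-long and 416875 FPKM in het-long valves. With short telomeres the sums were 583151 FPKM in WT-short and 590290 FPKM in het-short valves. The code was tested on simulated data and ran in Python 3.11.15 (pandas 2.3.3, numpy 2.4.6, matplotlib 3.10.9).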

Additional observations from a re-analysis of the deposited data

How the results depend on the processing

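No paired analysis was possible because each group has 1 pooled value, and for the same reason no replicate could be left out. Of the 45 differences of single members, 0 changed direction with a pseudocount of 0.1, 7 with median scaling, 6 with scaling without the 4 genes named mt-, 11 relative to endothelium, and 0 with scaling without the 23 genes of the mitochondrial chromosome, an alternative chosen after seeing the data. The differences of Lfng, Hey2 and Nrarp between genotypes with short telomeres and between telomere lengths in wild type valves, and those of Heyl and Dtx1 between genotypes, kept their direction under each of these. For heterozygous against wild type valves with long telomeres, the members' median was -0.64 with a pseudocount of 0.1, and -0.095 with 3 members higher relative to endothelium. With short telomeres it was 0.072 relative to endothelium. For short against long telomeres in wild type valves it was 0.019 with 5 members higher under median scaling, -0.57 with 0 higher without the mt- genes, -0.60 with 0 higher relative to endothelium and -0.34 without the mitochondrial chromosome. In heterozygous valves it was 0.63, -0.0021 with 4 higher, and -0.64 with 2 higher under median scaling, without the mt- genes and relative to endothelium. For heterozygous short-telomere against wild type long-telomere valves it was 0.093, -0.41 with 2 higher, -0.71 with 2 higher, and -0.16 without the mitochondrial chromosome, in the same order. Single differences that turned were, relative to endothelium, Hes1 at -0.25 between genotypes with short telomeres, and without the mt- genes, Hey2 at -0.17 and Rbpj at -0.06 in the last comparison and Lfng at -0.04 and Rbpj at -0.28 between telomere lengths in heterozygous valves. The causes were not tested.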
